A study of Mus musculus with 6 samples.

Results

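The 10 genes described here encode enzymes that lengthen fatty acids or place double bonds in them: the elongases Elovl1, Elovl2, Elovl3 and Elovl5, the desaturases Fads1, Fads2 and Scd2, and Hacd2, Hacd3 and Tecr, which complete each round of elongation. They were chosen by name, as genes of polyunsaturated and very long chain fatty acid synthesis, and are 10 of 34745 genes in the deposited RNA-seq tables. The tables hold primary hepatocytes of 2 groups of male mice aged 12 weeks, with 3 libraries in each, numbered 1, 2 and 4 in the labels. All mice carried floxed alleles of Foxa2, which encodes a forkhead transcription factor of the liver, and all received CCl4, a hepatotoxin that causes fibrosis, in 2 injections per week of 0.25 ml/kg over 4 weeks. FOXA2f/f mice had been given the control virus AAV8-TBG-Control and FOXA2H-KO mice the virus AAV8-TBG-Cre, 2 weeks before the start of CCl4. Cre was driven by the thyroid-binding globulin (TBG) promoter, which acts in hepatocytes, so Foxa2 is retained in the other liver cells. There was no group without CCl4, so a response to CCl4 itself cannot be read from these libraries.

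Each round of elongation in the endoplasmic reticulum joins an acyl-CoA to malonyl-CoA through an elongase of the ELOVL family. The product is then reduced by Hsd17b12, dehydrated by an enzyme of the HACD family and reduced again by Tecr. The front-end desaturases Fads1 and Fads2 act in turn with Elovl5 and Elovl2 to convert the essential dietary fatty acids into arachidonic and docosahexaenoic acid, and the liver is a main site of this conversion. Stearoyl-CoA desaturases, among them Scd1 and Scd2, instead make monounsaturated from saturated fatty acids, and Scd1 is the dominant form in adult mouse liver.

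Promoter sequences were taken from RefSeq (GRCm38.p6), which matched 7 of the 10 genes in the table used here. Elovl3, Fads1 and Scd2 were without an entry. Below are the 250 bases before the annotated start of the 3 genes with the lowest log2 fold changes of FOXA2H-KO over FOXA2f/f, each of them highest in the same library, FOXA2f/f replicate 2. They lie at chr13:41220404-41220653 on the minus strand for Elovl2, chr9:77917115-77917364 on the plus strand for Elovl5 and chr8:83594492-83594741 on the minus strand for Tecr. The Tecr window precedes a RefSeq start that lies inside the gene span of GENCODE M21 given further down, and Elovl2 has another RefSeq start, with a window at chr13:41220163-41220412, that is not printed. The sequences are written 5′ to 3′ with motif matches in capitals.
Elovl2: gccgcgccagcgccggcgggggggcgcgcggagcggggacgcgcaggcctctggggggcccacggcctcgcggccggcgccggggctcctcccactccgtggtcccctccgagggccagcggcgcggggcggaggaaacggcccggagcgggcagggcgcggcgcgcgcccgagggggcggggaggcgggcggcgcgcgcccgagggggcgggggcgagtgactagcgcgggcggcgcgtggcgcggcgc
Elovl5: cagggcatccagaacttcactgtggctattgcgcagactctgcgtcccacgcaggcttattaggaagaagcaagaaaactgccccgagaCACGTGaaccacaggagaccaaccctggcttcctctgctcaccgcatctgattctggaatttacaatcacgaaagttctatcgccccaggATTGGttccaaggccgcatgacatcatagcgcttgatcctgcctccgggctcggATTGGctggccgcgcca
Tecr: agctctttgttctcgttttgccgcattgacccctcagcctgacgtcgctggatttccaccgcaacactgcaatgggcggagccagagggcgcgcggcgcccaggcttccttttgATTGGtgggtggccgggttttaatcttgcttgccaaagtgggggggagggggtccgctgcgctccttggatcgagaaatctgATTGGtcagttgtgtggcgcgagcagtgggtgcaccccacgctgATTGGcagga
Motifs were searched on both strands: a sterol regulatory element (TCACNCCAC), the NF-Y box (CCAAT, or ATTGG on the other strand), a FOXA motif (TGTTTAC or TATTTAC), an E-box (CACGTG) and the DR1 element. The Tecr window holds 3 NF-Y boxes and the Elovl5 window holds 2 NF-Y boxes and 1 E-box, whereas the Elovl2 window, with a GC content of 87.2%, holds none of the motifs. Among the windows that are not printed, that of Hacd3 holds 1 NF-Y box and 1 E-box, and 1 window of Elovl1 holds 1 NF-Y box. Of all 32851 RefSeq promoter windows of this length, 33.8% hold an NF-Y box and 6.02% an E-box. The sterol regulatory element is found in 1.05% of these windows, the FOXA motif in 5.76% and the DR1 element in 0.0335%. None of these last 3 was found in the windows of the 7 matched genes, which says only that these letters are not in those windows.

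Library totals were 20983455 to 28327765 counts. Levels are given below in CPM, the count divided by the library total after TMM normalisation and scaled to a common total, and comparisons between genes in FPKM, which divides by transcript length. Foxa2 was 13.5 to 19.0 CPM in FOXA2f/f and 0.762 to 1.62 CPM in FOXA2H-KO libraries, and was the only gene of 14417 tested that was called, at an adjusted p below 0.05 with a change of at least 2-fold in edgeR's quasi-likelihood test (adjusted p = 0.0313). Of all tested genes, 745 had an unadjusted p below 0.05, and DESeq2 called 73. All 14 hepatocyte markers passed the filter and Alb took 9.38% to 11.0% of counts, whereas markers of stellate cells, macrophages and endothelial cells were also detected in every library. The labels do not say whether each library came from a separate mouse, so p-values measure only the spread between these libraries. FOXA2f/f replicate 2 stood apart in genes that supply the elongases. Fasn, the fatty acid synthase, was 448, 3706 and 417 CPM in FOXA2f/f replicates 1, 2 and 4, and 373, 457 and 147 CPM in FOXA2H-KO replicates 1, 2 and 4. Results that rest on that library are therefore given with and without it.

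None of the 10 genes was called. Elovl3 was too low to test, and of the 9 tested genes 2 had an unadjusted p below 0.05, Scd2 with higher and Elovl2 with lower levels in FOXA2H-KO. Across all tested genes 0.00694% were called and 5.17% had an unadjusted p below 0.05, 1.98% with higher and 3.18% with lower levels in FOXA2H-KO. The same 2 genes were those whose groups did not overlap, which was so for 10.5% of all tested genes, 4.54% with higher and 5.96% with lower levels in FOXA2H-KO. The log2 fold change of FOXA2H-KO over FOXA2f/f was below 0 for 7 of the 9 genes, against 52.2% of all genes, with a median of -0.07 against -0.01 for all genes. Without FOXA2f/f replicate 2 the median was 0.0017. With scaling by library size alone it was 0.07, against 0.10 for all genes, and Elovl1, Hacd2 and Hacd3 then lay just above 0. These are bulk samples, in which fewer cells of a type and less RNA per cell cannot be told apart.

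**Figure D1:**
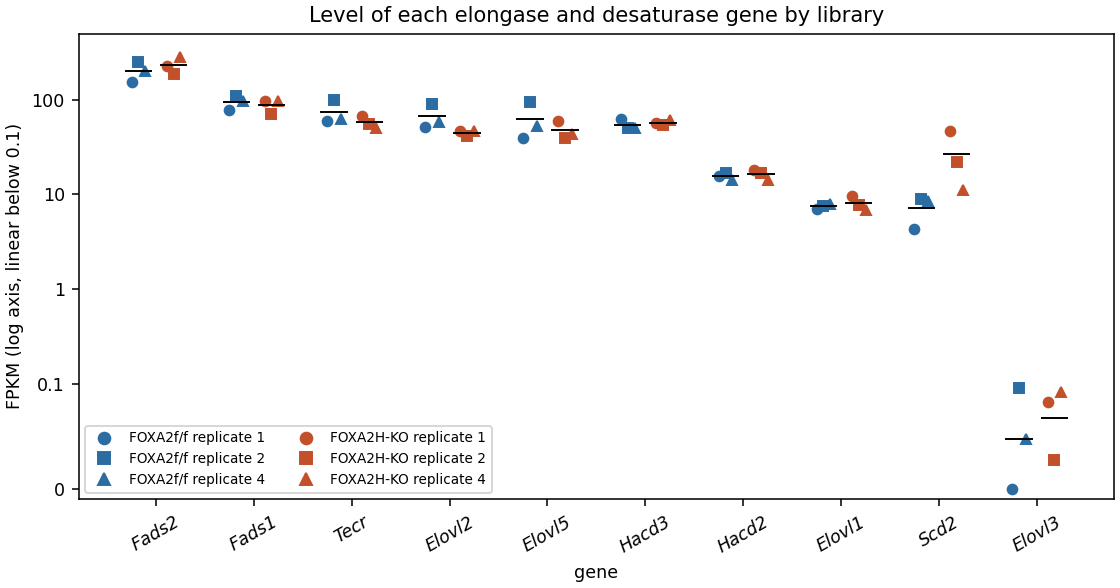
Level of each gene in each library, in FPKM on a log axis that is linear below 0.1, with FOXA2f/f in blue and FOXA2H-KO in orange, markers for replicates 1, 2 and 4, and a bar at the group mean. Fads2 is the highest gene in both groups, Scd2 is higher in all 3 FOXA2H-KO than in all 3 FOXA2f/f libraries, and Elovl3 stays below 0.1 FPKM.

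Per transcript length, Fads2 was the highest of the 10 genes in both groups. In FOXA2f/f libraries it was at 202 ± 48.4 FPKM (SD, n = 3), followed by Fads1 at 94.9 ± 15.5 FPKM. Their library values did not overlap, since Fads2 was at least 154 FPKM in every library and Fads1 was 78.3 to 109 FPKM. Tecr (73.9 ± 22.8), Elovl2 (66.5 ± 20.6), Elovl5 (62.1 ± 28.6) and Hacd3 (54.2 ± 6.52 FPKM) followed, and each overlapped its neighbours in this order. Hacd2, at 15.5 ± 1.37 FPKM, lay apart from Hacd3 above it and from Elovl1 below it, whereas Elovl1 (7.46 ± 0.523 FPKM) and Scd2 (7.21 ± 2.54 FPKM) overlapped. In FOXA2H-KO libraries Fads2 was at 230.2 ± 46.7 FPKM and Fads1 at 88.5 ± 16.1 FPKM. Tecr (57.8 ± 8.43), Hacd3 (56.9 ± 3.27) and Elovl5 (47.7 ± 11.0 FPKM) followed and overlapped. Elovl2, at 45.0 ± 3.47 FPKM, overlapped Elovl5 but lay below Hacd3 and Tecr, which it overlapped in FOXA2f/f. Scd2, at 26.6 ± 18.3 FPKM, had library values of 46.9, 21.9 and 11.2 FPKM that spanned those of Hacd2 (14.0 to 18.1 FPKM) and lay above those of Elovl1 (6.80 to 9.69 FPKM).

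Scd2 (ENSMUSG00000025203, GRCm38 chromosome 19, 44293674 to 44306864, plus strand) encodes a stearoyl-CoA desaturase best known from brain and from early postnatal life. It was 25.7, 55.9 and 41.3 CPM in FOXA2f/f replicates 1, 2 and 4, from 599, 1019 and 1301 counts. In FOXA2H-KO replicates 1, 2 and 4 it was 228, 117 and 61.4 CPM, from 6190, 2920 and 1328 counts. Every FOXA2H-KO library was above every FOXA2f/f library, but FOXA2H-KO replicate 4 was close to FOXA2f/f replicate 2, and the FOXA2H-KO values were widely spread. The log2 fold change was 1.73 (SE 0.48, 95% interval 0.62 to 2.83), or 3.31-fold, and did not pass the threshold in edgeR's quasi-likelihood test (adjusted p = 0.693, unadjusted p = 0.00734). The exact permutation test of 3 against 3 libraries gave p = 0.1, two-sided, the smallest that this design allows. DESeq2 did call Scd2, with an adjusted p of 0.0255 against a background of 0.457% of 15990 genes called by that tool. Over all alternatives the adjusted p ranged from 0.0255 to 1.00. The difference was 2.01 on the log2 scale without FOXA2f/f replicate 2 (adjusted p = 0.439 in edgeR's test) and 1.12 without FOXA2H-KO replicate 1, the library in which Scd2 was highest.

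Of the 50-base words in Scd2 transcripts, 3.97% are also in other genes, mainly in Scd1, so some reads of the pair could be assigned to the wrong gene. Scd1 had 145611 to 415150 counts per library against 599 to 6190 for Scd2. A small share of Scd1 reads could therefore weigh on the Scd2 counts by more than that percentage, which was not tested. In FOXA2f/f both genes of the pair were lowest in replicate 1 and highest in replicate 2. In FOXA2H-KO their order differed, since Scd2 was highest in replicate 1, where Scd1 was lowest. Scd1 was 6645, 22764 and 8137 CPM in FOXA2f/f replicates 1, 2 and 4, and 6205, 9927 and 6734 CPM in FOXA2H-KO replicates 1, 2 and 4. Scd1 was thus highest in FOXA2f/f replicate 2, and its other libraries overlapped between groups (log2 fold change -0.72, SE 0.51, and 0.05 without that library). The count ratio of Scd2 to Scd1 was 0.00387, 0.002455 and 0.00508 in FOXA2f/f and 0.0367, 0.0118 and 0.00912 in FOXA2H-KO replicates 1, 2 and 4. The groups did not overlap, as for 11.3% of all pairs of tested genes. By geometric means the ratio was 4.34-fold higher in FOXA2H-KO (exact permutation p = 0.1). On the log2 scale the difference was 2.12, and 1.83 without FOXA2f/f replicate 2. Scd2 nonetheless stayed a small part of the stearoyl-CoA desaturase counts in all 6 libraries.

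Scd2 is also made outside hepatocytes, so the summed levels of other cell types are given beside it. The 8 cholangiocyte markers summed to 188 to 382 CPM in FOXA2f/f and 263 to 719 CPM in FOXA2H-KO libraries. Of the 6 that were tested, 5 had a log2 fold change above 0, and Krt7 and Krt19, keratins of bile duct cells, did not overlap between groups. The cholangiocyte sum was highest in FOXA2H-KO replicate 1, as Scd2 was. FOXA2H-KO replicate 4 had the next highest sum and the lowest Scd2 of its group. These sums were mostly Spp1, a secreted phosphoprotein, at 164 to 353 CPM in FOXA2f/f and 241 to 687 CPM in FOXA2H-KO. Without Spp1 the other 7 markers summed to 29.4, 24.7 and 18.4 CPM in FOXA2f/f and 32.4, 22.1 and 28.4 CPM in FOXA2H-KO replicates 1, 2 and 4, and the groups were intermixed. The 13 stellate cell and fibroblast markers summed to 1316 to 3263 CPM in FOXA2f/f and 1931 to 3129 CPM in FOXA2H-KO, and the 13 macrophage markers to 676 to 3091 and 1501 to 2387 CPM. For both lists the highest sum was in FOXA2f/f replicate 4, where Scd2 was 41.3 CPM. In FOXA2H-KO replicates 1, 2 and 4, where Scd2 was 228, 117 and 61.4 CPM, stellate sums were 3129, 1931 and 2082 CPM. Macrophage sums were 2387, 2141 and 1501 CPM in the same libraries. Endothelial markers (12 genes) summed to 395 to 1347 and 746 to 891 CPM, and lymphocyte markers (12 genes, 7 tested) to 19.7 to 86.0 and 45.1 to 76.2 CPM. In FOXA2H-KO replicates 1, 2 and 4 endothelial sums were 746, 860 and 891 CPM, and lymphocyte sums were 76.2, 62.3 and 45.1 CPM. The 9 neutrophil markers summed to 117, 10.7 and 74.2 CPM in FOXA2f/f replicates 1, 2 and 4, and to 18.6 to 30.6 CPM in FOXA2H-KO libraries. Of the 8 tested, 6 were lower in FOXA2H-KO at an unadjusted p below 0.05 in edgeR's test. The median log2 fold change of this list was -2.64, and -3.18 without FOXA2f/f replicate 2. No marker of these lists was without counts in all libraries. No list had a gene called in edgeR's test, and DESeq2 called 1 of their tested genes, a neutrophil marker. The part of these cell types in the Scd2 values was not tested.

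Elovl2 (ENSMUSG00000021364, chromosome 13, 41182381 to 41220405, minus strand) lengthens the longer polyunsaturated chains on the way to docosahexaenoic acid. It was 378, 699 and 358 CPM in FOXA2f/f replicates 1, 2 and 4, and 283, 272 and 319.7 CPM in FOXA2H-KO replicates 1, 2 and 4. All 3 FOXA2H-KO libraries were below all 3 FOXA2f/f libraries, and replicate 2 of FOXA2f/f was the farthest from them. Elovl2 had a log2 fold change of -0.71 (SE 0.27, 95% interval -1.35 to -0.08), or 0.610-fold, with an unadjusted p of 0.0324 and an adjusted p of 0.917 in edgeR's test, and the exact permutation test gave p = 0.1. Without FOXA2f/f replicate 2 the groups still did not overlap, but the difference was -0.33 (SE 0.15, adjusted p = 0.908), a pattern then seen in 20.2% of all genes. The adjusted p ranged from 0.218 to 1.00 over all alternatives.

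Elovl5 (ENSMUSG00000032349, chromosome 9, 77917364 to 77984519, plus strand) lengthens the shorter polyunsaturated chains, between the steps of Fads2 and Fads1. It was 169, 421 and 183 CPM in FOXA2f/f replicates 1, 2 and 4, and 208, 152 and 168 CPM in FOXA2H-KO replicates 1, 2 and 4. Apart from FOXA2f/f replicate 2 the libraries of both groups were intermixed. The log2 fold change of -0.55 (SE 0.35, adjusted p = 0.983 in edgeR's test) became 0.0017 without that library. Elovl1 (ENSMUSG00000006390, chromosome 4, 118428093 to 118432953, plus strand), which makes saturated and monounsaturated very long chains used in sphingolipids, had the smallest standard error of the 9 tested genes. It was 38.2 to 45.5 CPM in FOXA2f/f and 36.4 to 45.8 CPM in FOXA2H-KO, with a log2 fold change of -0.02 and a 95% interval of -0.34 to 0.29. Its exons overlap those of Cdc20 on the other strand over 1.94% of their length.

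Elovl3 (ENSMUSG00000038754, chromosome 19, 46131897 to 46135694, plus strand), an elongase of skin and brown fat that in mouse liver is known for higher levels in males, was at the detection limit in these male hepatocytes. It had 0, 3 and 2 counts in FOXA2f/f replicates 1, 2 and 4, and 3, 1 and 3 counts in FOXA2H-KO replicates 1, 2 and 4. The count of 0 allows a level of up to 0.129 CPM, by counting error only, so no difference was detectable at this depth. Of a list of 12 genes with higher levels in male than in female liver, Elovl3 among them, the other 11 were tested, and FOXA2f/f replicate 2 was the highest library for 7. Hsd3b5, a steroid dehydrogenase of male liver, was 0.601, 19.1 and 0.509 CPM in FOXA2f/f replicates 1, 2 and 4 and at most 0.441 CPM in FOXA2H-KO. The list's median log2 fold change was 0.37, with 0 genes called and with 1 gene in each direction at an unadjusted p below 0.05, and 1.38 without FOXA2f/f replicate 2. In that setting 1 gene of the list was called, Cyp7b1, an oxysterol hydroxylase, with a log2 fold change of 2.16 (adjusted p = 0.0418 in edgeR's test) against 1.04 with all libraries.

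Fads1 (ENSMUSG00000010663, chromosome 19, 10182888 to 10196877, plus strand) and Fads2 (ENSMUSG00000024665, chromosome 19, 10062765 to 10101746, minus strand) lie in 1 cluster on chromosome 19. Fads2 catalyses the entry step of the polyunsaturated pathway and Fads1 the later desaturation that yields arachidonic acid. Fads1 was 298, 433 and 303 CPM in FOXA2f/f replicates 1, 2 and 4, and 301, 238 and 340.1 CPM in FOXA2H-KO replicates 1, 2 and 4. Fads2 was 256, 436 and 271 CPM in FOXA2f/f and 303, 276 and 424 CPM in FOXA2H-KO replicates 1, 2 and 4. Both overlapped between groups, and Fads2 had a high library in each group. The fold changes on the log2 scale were -0.23 for Fads1 (95% interval -0.73 to 0.27) and 0.06 for Fads2 (95% interval -0.55 to 0.67). Without FOXA2f/f replicate 2 they were -0.03 for Fads1 and 0.35 for Fads2, whose groups then did not overlap (adjusted p = 0.992 in edgeR's test). In that setting the groups did not overlap for 20.2% of all genes. Fads2 was -0.14 without FOXA2H-KO replicate 4.

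Among the enzymes that complete each round, Tecr (ENSMUSG00000031708, chromosome 8, 83571698 to 83607971, minus strand), the enoyl-CoA reductase of the last step, was 96.1, 170.1 and 83.0 CPM in FOXA2f/f replicates 1, 2 and 4, and 88.2, 80.4 and 75.5 CPM in FOXA2H-KO replicates 1, 2 and 4. FOXA2H-KO replicate 1 was above FOXA2f/f replicate 4, so the groups overlapped. Its log2 fold change was -0.52 (SE 0.26, adjusted p = 0.944 in edgeR's test) and -0.14 without FOXA2f/f replicate 2. The dehydratases Hacd2 (ENSMUSG00000035376, chromosome 16, 35022428 to 35109177, plus strand) and Hacd3 (ENSMUSG00000033629, chromosome 9, 64986983 to 65021693, minus strand) overlapped between groups. Hacd2 was 45.7 to 69.7 CPM in FOXA2f/f and 51.0 to 60.1 CPM in FOXA2H-KO, and Hacd3 was 125 to 185 and 138 to 166 CPM. Their log2 fold changes were -0.07 (95% interval -0.47 to 0.34) and -0.06 (95% interval -0.47 to 0.35), so that these intervals leave out a 2-fold difference. Of their 50-base words, 6.74% for Hacd2 and 6.18% for Tecr are shared with other genes, mainly Gm7908 and Gm48016.

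**Figure D2:**
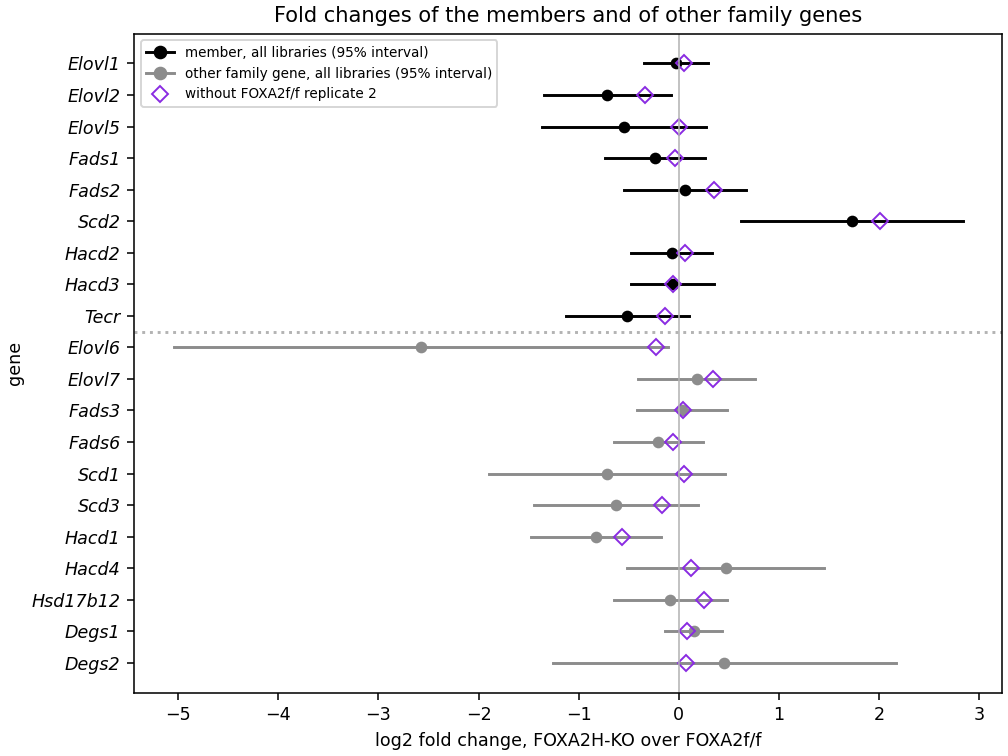
Log2 fold change of FOXA2H-KO over FOXA2f/f for the 9 tested genes (black) and 11 further genes of the same families (grey), with lines for the 95% interval and open diamonds for the value without FOXA2f/f replicate 2. The diamonds of Elovl2, Elovl5, Tecr, Scd1 and Elovl6 lie nearer to 0 than the values from all libraries, whereas that of Scd2 lies farther from 0, at 2.01.

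Ratios of counts between a pair of genes in the same library do not depend on how libraries are scaled. The 9 tested genes form 36 pairs, and the ratio did not overlap between groups in 14 of them (38.9%), against 11.3% of all pairs of tested genes. Pairs share genes and are not independent. Scd2 was in 8 of the pairs, of which 7 did not overlap, and of the 28 pairs without Scd2 another 7 did not overlap. The smallest Benjamini-Hochberg adjusted exact permutation p over the 36 pairs was 0.257. Each pair that did not overlap had the smallest possible exact p of 0.1, so this value follows from the count of 14 and adds nothing to it. Without FOXA2f/f replicate 2, 15 of the 36 pairs did not overlap, against 20.8% of all pairs.

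The ratio of Elovl2 to Fads2, the elongase of the late steps against the desaturase of the entry step, had the widest gap between groups among pairs without Scd2, and it was chosen after the values were seen. It was 1.48, 1.60 and 1.32 in FOXA2f/f replicates 1, 2 and 4, and 0.934, 0.988 and 0.754 in FOXA2H-KO replicates 1, 2 and 4. FOXA2f/f libraries thus held more Elovl2 than Fads2 counts and FOXA2H-KO libraries fewer. Counts are not divided by transcript length, and in FPKM Fads2 was above Elovl2 in every library of both groups. The ratio in FOXA2H-KO was 0.605-fold that of FOXA2f/f by geometric means, a difference of -0.72 on the log2 scale, and -0.66 without FOXA2f/f replicate 2. The exact permutation test gave p = 0.1, the smallest this design allows. Elovl2 to Fads1 was 1.27, 1.61 and 1.18 in FOXA2f/f and 0.940, 1.15 and 0.940 in FOXA2H-KO replicates 1, 2 and 4, with a narrow gap between the groups. For Fads1 to Fads2 the groups touched, with 0.994 in both FOXA2f/f replicate 2 and FOXA2H-KO replicate 1. Fads2 to Tecr was 2.66, 2.56 and 3.26 in FOXA2f/f and 3.43, 3.43 and 5.62 in FOXA2H-KO.

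**Figure D3:**
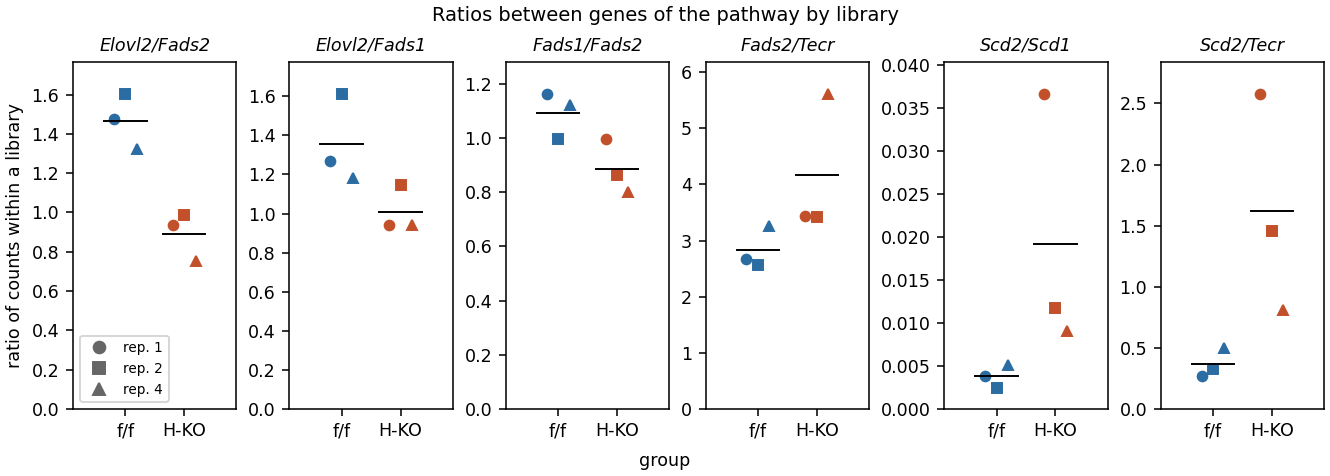
Ratio of counts of pairs of genes within each library, on linear axes from 0, with FOXA2f/f in blue, FOXA2H-KO in orange, markers for replicates 1, 2 and 4, and a bar at the group mean. Elovl2 to Fads2 is above 1.3 in every FOXA2f/f library and below 1 in every FOXA2H-KO library, and Scd2 to Scd1 is highest in FOXA2H-KO replicate 1, at 0.0367.

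The other genes of these families gave 0 calls among the 11 of 14 that were tested, with 2 of them lower at an unadjusted p below 0.05, Elovl6 and Hacd1. Elovl6, the elongase of the saturated and monounsaturated products of fatty acid synthase, was 73.7, 1276 and 119 CPM in FOXA2f/f replicates 1, 2 and 4, and 63.2, 141 and 42.5 CPM in FOXA2H-KO replicates 1, 2 and 4. FOXA2f/f replicate 2 was 9.07-fold above the next library, and the log2 fold change of -2.57 was -0.23 without it. Hacd1, a dehydratase best known from muscle, was low, at 4.68, 7.62 and 4.86 CPM in FOXA2f/f and 3.42, 2.57 and 3.65 CPM in FOXA2H-KO. Its groups did not overlap, with a log2 fold change of -0.83 (adjusted p = 0.833 in edgeR's test) and -0.57 without FOXA2f/f replicate 2. Hsd17b12, the ketoreductase of every elongation round, had a log2 fold change of -0.09, and of 0.25 without FOXA2f/f replicate 2. Its groups then did not overlap (adjusted p = 0.981 in edgeR's test), as for 20.2% of all genes in that setting. The remaining values were 0.18 for Elovl7, 0.03 for Fads3, -0.20 for Fads6, -0.63 for Scd3, 0.47 for Hacd4, 0.15 for Degs1 and 0.46 for Degs2. Without FOXA2f/f replicate 2 these were 0.34, 0.04, -0.06, -0.17, 0.12, 0.08 and 0.07 in the same order. Elovl4, Scd4 and Tecrl had at most 8 counts in a library.

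Beside Elovl6 and Scd1, which are described above, a list of 9 genes covers the supply of malonyl-CoA and fatty acids to the elongases, among them Mlycd, which breaks malonyl-CoA down. All 9 had a log2 fold change below 0 and were highest in FOXA2f/f replicate 2, as were 29.7% of all tested genes and 6 of the 9 tested elongation and desaturation genes. Their median was -1.27, and -0.28 without that library. None was called and 4 had an unadjusted p below 0.05. Acly, which makes cytosolic acetyl-CoA, was 281, 2004 and 374 CPM in FOXA2f/f replicates 1, 2 and 4, and 311, 303 and 193 CPM in FOXA2H-KO replicates 1, 2 and 4. On the log2 scale the difference was -2.23 for Fasn and -1.75 for Me1, an NADPH-producing enzyme, and -0.41 and -0.32 without FOXA2f/f replicate 2. FOXA2f/f replicate 2 exceeded the next highest library 8.10-fold for Fasn, 5.35-fold for Acly, 1.56-fold for Slc25a1, the citrate carrier, and 1.05-fold for Mlycd. For Elovl5 this excess was 2.02-fold, for Elovl2 1.85-fold, for Tecr 1.77-fold and for Fads1 1.27-fold. It was small for Fads2, at 436 CPM against 424 CPM in FOXA2H-KO replicate 4, and for Hacd2, at 69.7 CPM against 62.3 CPM in FOXA2f/f replicate 1.

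**Figure D4:**
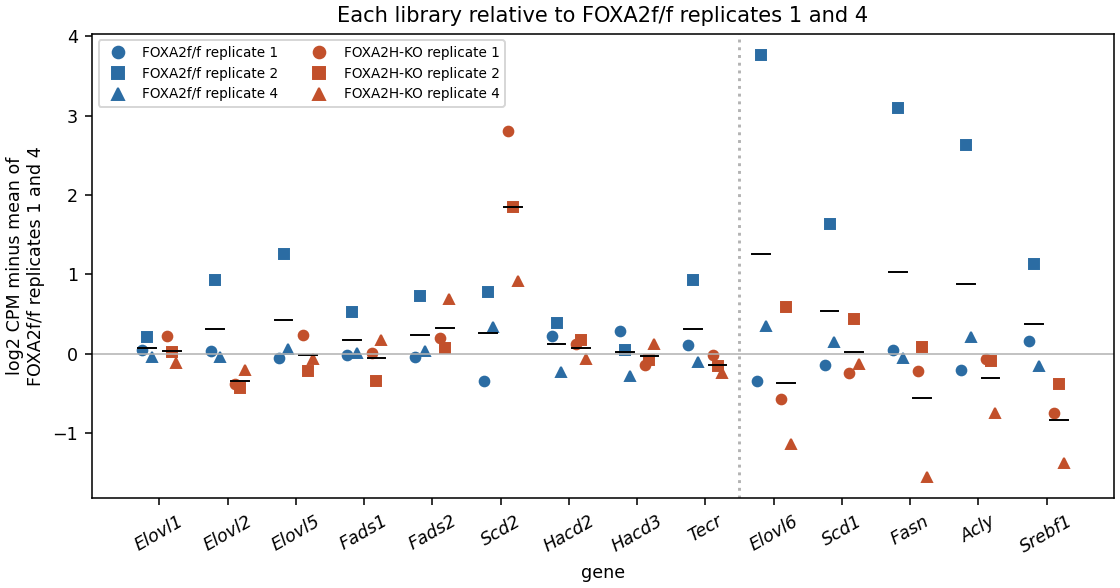
Each library as log2 CPM minus the mean of FOXA2f/f replicates 1 and 4, for the 9 tested genes (left of the dotted line) and for Elovl6, Scd1, Fasn, Acly and Srebf1 (right), with bars at the group means. FOXA2f/f replicate 2 is the highest library for all 5 genes on the right and for 6 of the 9 on the left, and Scd2 is highest in FOXA2H-KO replicate 1.

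Of 16 regulators of these genes, all were tested, Foxa2 itself was the 1 gene called, and 4 including Foxa2 were lower at an unadjusted p below 0.05. Srebf1, the transcription factor that drives fatty acid synthesis and desaturases after insulin, was 302, 591 and 242 CPM in FOXA2f/f replicates 1, 2 and 4, and 161, 208 and 104 CPM in FOXA2H-KO replicates 1, 2 and 4. Every FOXA2H-KO library was below every FOXA2f/f library, also when replicate 2 of FOXA2f/f was left out. The log2 fold change was -1.26 (SE 0.38, adjusted p = 0.771 in edgeR's test) and -0.79 without that library (adjusted p = 0.740). Mlxipl, the carbohydrate-responsive activator of the same genes, was 125, 239 and 189 CPM in FOXA2f/f and 122, 116 and 69.2 CPM in FOXA2H-KO. Its groups were also apart, narrowly, with a log2 fold change of -0.85 (adjusted p = 0.836 in edgeR's test). Without FOXA2f/f replicate 2 the groups of Mlxipl still did not overlap, and the difference was -0.61 (adjusted p = 0.908 in edgeR's test). In that setting the groups did not overlap for 20.2% of all genes.

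The genes that act next to the elongases and desaturases gave no calls in edgeR's test with all libraries. Of 6 electron donors of the desaturases, 6 were tested, with a median log2 fold change of -0.06, and the smallest unadjusted p belonged to Cyb5rl (-0.42). Of 14 genes of fatty acid uptake and activation 12 were tested (median 0.20), among them Acsl3 at -0.72, the 1 gene of that list with an unadjusted p below 0.05, Acsl5 at -0.60 and Acsl4, which prefers arachidonic acid, at 0.36. Leaving out FOXA2f/f replicate 2, these were -0.35, -0.12 and 0.38. The 15 peroxisomal genes, which shorten very long and polyunsaturated chains, had a median of -0.06, with Pecr at -0.60 and Ehhadh at 0.51, or -0.32 and 0.66 without that library. Of 14 phospholipid acyltransferases 13 were tested (median 0.04), with 9 log2 fold changes above 0 and 4 below. Lpcat3, which places polyunsaturated chains in phosphatidylcholine, was at -0.44, Agpat2 at -0.49 and Lpcat4 at 0.58. These were -0.10, 0.01 and 0.24 without FOXA2f/f replicate 2. Of 14 genes of ceramide synthesis 13 were tested (median 0.09), with Cers6 at 0.42 and Kdsr at 0.32, or 0.34 and 0.46 without it. Of 22 eicosanoid genes 19 were tested (median -0.06), and Cyp4a10, a fatty acid hydroxylase, was 364.8 CPM in FOXA2H-KO replicate 4 and 10.6 to 36.1 CPM in the other libraries. The medians of these 6 lists without FOXA2f/f replicate 2 were 0.08, 0.22, 0.12, 0.09, 0.05 and 0.04 in the same order. The 18 clock genes, given because many lipid genes vary over the day, had a median of -0.01, and of -0.16 without FOXA2f/f replicate 2. Of these, 8 had a log2 fold change above 0 and 10 below. Bhlhe40 was at -0.86 and Per3 at -0.49, both with an unadjusted p below 0.05 in edgeR's test and with groups that did not overlap. Clock was at 0.44, with groups that overlapped. Leaving out FOXA2f/f replicate 2, Bhlhe40, Per3 and Clock were -1.06, -0.50 and 0.63. Their groups then did not overlap, as for 20.2% of all genes in that setting.

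The genes most like each enzyme over the 6 libraries were found among 8294 genes with a mean of at least 10 CPM, by Pearson's r of log2 CPM, given as a description. With so many genes and only 6 libraries, a high r follows in part from taking the largest values. For Scd2 they were Prpf4b (r = 0.98) and Acot9 (r = 0.98), an acyl-CoA thioesterase. For Elovl2 they were Ticam1 and Tm9sf1 (both r = 0.998), for Elovl5 Ceacam1 (r = 0.9998) and Cstf1 (r = 0.998), and for Tecr Pgap2 (r = 0.998) and Lactb2 (r = 0.9975). For Fads1 they were Fuk and Slc35c1 (both r = 0.99), and for Fads2 Spop and Rad21 (both r = 0.99). Hacd3 was most like Nek4 (r = 0.998), Hacd2 like Guf1 and Tbcel (both r = 0.99), and Elovl1 like Entpd5 (r = 0.98) and Lipa (r = 0.97). Without FOXA2f/f replicate 2 the r of these pairs ran from 0.9605 (Elovl1 with Lipa) to 0.9981 (Hacd2 with Guf1). No other elongase or desaturase was among these nearest genes. Between the 9 enzymes themselves the median r over 36 pairs was 0.42, and 0.098 without FOXA2f/f replicate 2, so the correlation among them rested largely on that library.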

How the data were processed

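RNA-seq of primary hepatocytes of CCl4-treated FOXA2f/f (n = 3) and FOXA2H-KO (n = 3) mice was analysed from the deposited tables, with groups from the sample titles. The authors deposited, for each library, whole-number counts per Ensembl gene, without normalisation, and FPKM values. The submitters' processing notes name CASAVA 1.8, TopHat2 2.1.0, HTSeq and edgeR with build mm10. The annotation release and the strand setting of counting are not given in the sources used here. Reads of near-identical or overlapping genes could therefore be split. The deposited series table repeats the per-sample columns and was not used.

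Counts were fitted for all genes in edgeR 4.0.16 (R 4.3.3) with TMM scaling, filterByExpr (14417 of 34745 genes) and the quasi-likelihood test, with no block. Genes were called at a Benjamini-Hochberg adjusted p below 0.05 over all tested genes and a change of at least 2-fold. For single values all arrangements of 3 against 3 libraries were enumerated (exact permutation, two-sided), with a smallest p of 0.1. The script was tested on simulated data. DESeq2 1.42.0, limma 3.58.1 on log2(FPKM + 1) and other settings were alternatives. At 20983455 to 28327765 counts per library, tested genes of the pathway had 599 to 12750 counts, with a counting error of at most 4.09%. Positions and shared 50-base words came from GENCODE M21 on GRCm38, and promoters from RefSeq. Replicates of a group differed well beyond counting noise.

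The 10 genes and all gene lists (other family members, electron donors, uptake and activation, supply, peroxisomal shortening, phospholipid acyltransferases, ceramide synthesis, regulators, eicosanoids, male-biased genes, clock genes and cell type markers) were chosen with earlier results of these data known. All 10 genes are named, with every tested family member. From each other pathway list up to 3 genes of smallest p were taken, and for each of the 10 genes the 2 most correlated genes, of which 1 is not reported here. Acly, Slc25a1, Mlycd, the ratios and marker genes were chosen after values were seen.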

Additional observations from a re-analysis of the deposited data

How the results depend on the processing

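The biological coefficient of variation between libraries of a group was 25.3%, against a counting error of at most 4.09% for the tested genes of the pathway, so the spread between libraries and not the depth limits the comparisons. Library size alone moved the median of all genes to 0.10 and FPKM + 1 and FPKM + 0.1 moved it to 0.08 and 0.11 on the log2 scale.

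The number of genes called was 1, and it was 73 in DESeq2, 64 in the exact test of edgeR, 2 with every gene of at least 1 count, 254 at an unadjusted p with a 2-fold change, and 0 with library size alone, with limma on either FPKM scale and with the replicate block. Leaving out 1 library gave 0 to 6, the 6 without FOXA2f/f replicate 2. Of the elongation and desaturation genes 0 were called, and 1, Scd2, by DESeq2 (1.72, adjusted p = 0.0255) and by the unadjusted p with 2-fold. Their median of -0.07 turned to 0.0692 with library size alone, 0.0671 with FPKM + 1 and 0.0706 with FPKM + 0.1, and was -0.2266 to 0.0017 with 1 library left out. The genes with groups that did not overlap numbered 2, and 2 to 4 with 1 library left out, 4 without FOXA2f/f replicate 4 (then 36.4% of all genes) or FOXA2H-KO replicate 1 (18.1%).

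Scd2 and Elovl2 kept their direction in all 15 alternatives, with Scd2 at 1.12 or above. Fads1 and Tecr kept theirs too. With library size alone, FPKM + 1 and FPKM + 0.1 in turn, Elovl1 was 0.1084, 0.0850 and 0.0935, Hacd2 0.0760, 0.0671 and 0.0706, and Hacd3 0.0692, 0.0729 and 0.0741. With 1 library left out, Elovl1 was -0.1192 to 0.0581, Elovl5 -0.7604 to 0.0017, Fads2 -0.1377 to 0.3464, Hacd2 -0.2266 to 0.0649 and Hacd3 -0.2005 to 0.0958. The cause was not tested.

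The numbers were not taken as pairs, since the paper describes no pairing of libraries. Libraries with the same number also did not deviate together (correlations of -0.0688, 0.0262 and -0.2259). With the replicate block Elovl2 was -0.64 and Scd2 1.56, the median was -0.05 and 0 genes were called. The count of pairs with ratios that did not overlap was 14, and 15 without FOXA2f/f replicate 2, an alternative chosen after seeing the data.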
